A study of Homo sapiens with 6 samples.

Results

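Small nucleolar RNA (snoRNA) host genes are genes whose introns or exons hold snoRNAs. Here they were taken as every gene of the count table named SNHG with a number, together with GAS5, ZFAS1, DANCR, EPB41L4A-AS1 and TAF1D, with MEG8 left out. This rule, which uses names alone, gave 33 genes (37 gene identifiers) of the 48183 gene names in the table. TAF1D is the one protein-coding gene among them, and the other 32 are long noncoding RNA genes in GENCODE release 44.

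The study compared naive with primed human embryonic stem cells by bulk RNA-seq of polyadenylated RNA. The 4 naive libraries were AICAR naive 1 and AICAR naive 2 (converted with AICAR, an activator of the kinase AMPK), CA-p38 naive (converted by doxycycline-induced expression of a constitutively active p38 kinase) and VPA naive (converted with valproic acid, a histone deacetylase inhibitor). After conversion the naive cells were kept in PXGL medium on mitotically inactivated mouse embryonic fibroblasts, passaged, and sorted for the surface proteins CD75 and SUSD2. For the CA-p38 cells the paper also describes a later move to PXGL without feeders. Which of these cultures gave the CA-p38 naive library is not stated. The 2 primed libraries were the untreated parents, primed EOS and primed CA-p38 EOS, grown on Matrigel in StemFit medium. EOS, the parent of the AICAR and VPA cells, carries a pluripotency reporter, and CA-p38 EOS is the same line with the inducible kinase. GEO's labels give H1 as the cell line of every sample while the study's text names H9, and which is right was not settled here. The naive and primed states therefore differed in medium and sorting as well and, as far as stated, in feeder cells. These cannot be told apart from the state. Nothing in the labels says that the libraries came from separate cultures, and the paper lists its AICAR samples at consecutive passage numbers. The p-values below therefore measure the spread between these libraries.

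Most snoRNAs are cut out of the introns of such hosts after splicing. Box C/D snoRNAs guide 2′-O-methylation and box H/ACA snoRNAs guide pseudouridylation of ribosomal RNA, while small Cajal body RNAs (scaRNAs) guide the same modifications on spliceosomal RNAs. Many noncoding hosts have a 5′ terminal oligopyrimidine (TOP) start like that of ribosomal protein mRNAs, and their spliced RNAs are known substrates of nonsense-mediated decay. A host's level in poly(A) RNA is thus a level of the spliced or partly spliced carrier, not of the snoRNA.

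The depth was 46823699 to 54277064 counts per library. All 6 naive markers tested were called higher in naive libraries and all 5 primed markers lower, so the states matched their labels. DPPA5 (log2 fold change 11.19) and KLF17 (9.42) were the highest of the former, and SFRP2 (-10.69) and DUSP6 (-10.68) the lowest of the latter. Of the 3 pluripotency genes, NANOG (1.33) was called higher, SOX2 (-0.87) lower, and POU5F1 (-0.12) did not pass. Summed naive markers stood at 1854 to 2155 CPM (counts per 1000000 counts of a library) in the naive libraries and at 7.67 to 9.88 CPM in the primed ones. Of markers of other cells, the 6 fibroblast genes summed to 30.8 to 72.8 CPM in naive and 175 to 192 CPM in primed libraries. Of these, 3 were called lower, POSTN (-4.87) and COL1A2 (-2.28) the most. The other 3, LUM (2.15), COL3A1 (1.22) and DCN (0.87), had log2 fold changes above 0 and were not called. COL3A1 was at 16.6 CPM in CA-p38 naive and at 2.19 CPM in primed CA-p38 EOS. The 4 neural genes summed to 156 to 196 CPM against 114 to 133 CPM, with TUBB3 alone called higher. The 4 trophectoderm genes summed to 6.10 to 10.7 CPM against 0.424 to 1.90 CPM (2 of 3 tested called higher, GATA2 at 4.45 and HAND1 at 3.996), and the 4 endoderm genes to 11.6 to 17.7 CPM against 7.38 to 30.5 CPM (GATA4 higher at 4.51, FOXA2 and SOX17 lower at -4.14 and -3.50). No marker was at 0 in all naive libraries, and the part of these cells in the results below was not tested.

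The starts of 12 host genes are shown because the TOP start is the sequence feature by which these genes are best known, and the 12 include hosts that were higher, lower and not called. Each line runs from 40 bases before the RefSeq start to 20 bases from it, on the gene's strand of GRCh38.p14. Capitals mark a run of at least 5 pyrimidines opened by a C and beginning within 5 bases of the start, and the letters TATA where they lie 40 to 20 bases before it. The 12 are not typical of the hosts. Only SNHG1 and SNHG14 among them lack the run, while 14 of 29 host windows (48.3%) had it. All 6 host windows with both the run and TATA are shown.
SNHG12, chr1:28581854-28581913, minus strand: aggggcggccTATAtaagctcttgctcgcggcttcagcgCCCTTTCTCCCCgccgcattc
ZFAS1, chr20:49278602-49278661, plus strand: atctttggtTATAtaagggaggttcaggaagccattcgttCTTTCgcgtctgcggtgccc
SNHG8, chr4:118278722-118278781, plus strand: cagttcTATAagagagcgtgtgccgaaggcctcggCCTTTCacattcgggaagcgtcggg
TAF1D, chr11:93741476-93741535, minus strand: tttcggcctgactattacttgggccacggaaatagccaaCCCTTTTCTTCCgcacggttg
SNHG32, chr6:31834876-31834935, plus strand: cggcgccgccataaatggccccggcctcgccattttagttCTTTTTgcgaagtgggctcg
SNHG1, chr11:62855866-62855925, minus strand: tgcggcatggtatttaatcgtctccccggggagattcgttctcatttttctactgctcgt
SNHG5, chr6:85678714-85678773, minus strand: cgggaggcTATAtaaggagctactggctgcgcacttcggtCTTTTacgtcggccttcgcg
SNHG7, chr9:136728165-136728224, minus strand: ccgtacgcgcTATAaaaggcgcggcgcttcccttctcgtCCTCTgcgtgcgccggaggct
SNHG19, chr16:2155339-2155398, minus strand: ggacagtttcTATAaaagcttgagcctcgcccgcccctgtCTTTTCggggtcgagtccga
DANCR, chr4:52712354-52712413, plus strand: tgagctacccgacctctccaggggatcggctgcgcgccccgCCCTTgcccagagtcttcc
SNHG18, chr5:9546160-9546219, plus strand: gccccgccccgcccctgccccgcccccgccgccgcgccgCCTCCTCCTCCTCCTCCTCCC
SNHG14, chr15:24823568-24823627, plus strand: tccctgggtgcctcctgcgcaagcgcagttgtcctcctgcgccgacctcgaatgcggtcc

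The RefSeq promoter table held 29 of the 33 host genes. Of these 29 windows, 14 (48.3%) had the pyrimidine run, against 19.7% of all 27305 promoters in the table. TATA at that distance was found in 6 (20.7%) against 6.26%, and both features together in the same 6, namely SNHG5, SNHG7, SNHG8, SNHG12, SNHG19 and ZFAS1, against 1.17%. Both letters and distances were chosen after the starts had been looked at, only the gene's own strand was searched, and the 2 motifs cannot overlap. The E-box CACGTG, which reads the same on both strands, was present anywhere in the 300 bases of 2 windows (6.90%, SNHG7 and SNHG30) against 7.43% of all promoters. The RefSeq start of SNHG14 lies upstream of the GENCODE span of the gene, as does that of GAS5.

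Hosts with and without the pyrimidine run were found in both directions. The pyrimidine run was present in 8 of the 16 windows of hosts called higher in naive cells, in 2 of the 3 called lower (DANCR and SNHG18) and in 4 of the remaining 10. Of the 6 windows with both features, 3 belonged to hosts called higher and 3 to hosts not called. The window of SNHG1, which rose 4.995-fold, has no run by this definition, and neither has that of GAS5.

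Host genes were mostly higher in naive cells. Of the 32 tested, 18 were called higher (56.2%) and 3 lower (9.38%), while 11 did not pass the test (edgeR, adjusted p under 0.05). Over all 26497 genes tested, 26% were called higher, 27% lower and 53.1% in either direction. The median log2 fold change of the hosts was 0.66, against 0.11 for all genes tested. Among all 6639 long noncoding RNA genes tested, the median was 0.52, with 24.7% called higher and 10.9% lower. Naive and primed libraries did not overlap for 23 hosts (19 higher, 4 lower), beside 64.9% of all genes tested. SNHG28 was not tested, with 1 to 4 counts in each naive library and 0 in both primed libraries, where a count of 0 allows up to 0.0591 CPM.

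Summed over the 33 genes, the hosts took 2307 to 2604 CPM in the naive libraries and 1920 and 1992 CPM in the primed ones. Without SNHG14, which fell, the sums were 1901 to 2246 CPM against 1122 and 1106 CPM. Leaving out a host that fell widens the gap by construction, since the hosts that rose were kept. SNHG1, for example, stayed in with a naive mean of 374 CPM and a primed mean of 74.8 CPM. The sums without SNHG14 therefore show how much that gene weighs, and only the sums over all 33 genes describe the hosts as a set. CPM values are scaled by the trimmed mean of M-values (TMM) and are not divided by length, so they compare libraries and not genes.

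**Figure D1:**
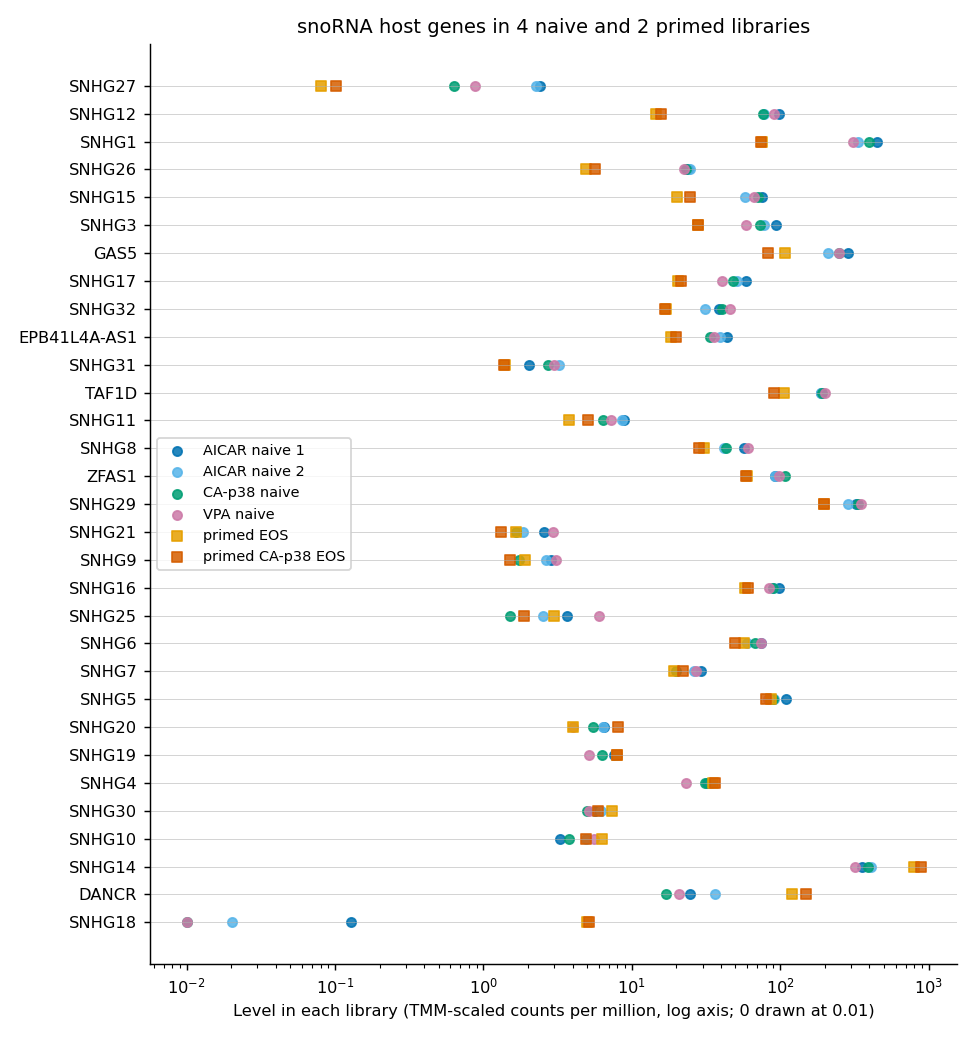
Level in every library of each of the 31 snoRNA host genes that averaged 1 CPM or more (x axis: TMM-scaled CPM, log axis; circles: 4 naive libraries, squares: 2 primed libraries), ordered by fold change. SNHG27 and SNHG12 at the top have every naive library above both primed ones, and SNHG14, DANCR and SNHG18 at the bottom have every naive library below them.

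SNHG12 and SNHG1 had the steepest rises among hosts with more than a few CPM. SNHG12 (chromosome 1, 28578538 to 28583132, minus strand) holds SNORD99 and the H/ACA snoRNAs SNORA61, SNORA44 and SNORA16A. It was at 98.6, 77.6, 77.1 and 90.3 CPM in AICAR naive 1, AICAR naive 2, CA-p38 naive and VPA naive, against 14.7 and 15.8 CPM in primed EOS and primed CA-p38 EOS. All 4 naive libraries were well above both primed ones, a log2 fold change of 2.50 ± 0.15 (SE; adjusted p = 1.70e-08).

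SNHG1 (chromosome 11, 62851978 to 62855953, minus strand) carries 8 C/D snoRNAs, SNORD22 and SNORD25 to SNORD31. In the same order of libraries it was at 451, 336, 397 and 311 CPM in naive and 75.7 and 73.9 CPM in primed cells. The groups lay far apart, with a log2 fold change of 2.32 ± 0.15 (SE; adjusted p = 4.90e-08). SNHG26 (chromosome 7, 22854126 to 22872952), host of SNORD93, was at 23.9, 24.7, 23.4 and 22.4 CPM against 4.91 and 5.68 CPM. Its naive libraries were close to each other, and the log2 fold change was 2.15 ± 0.16 (SE; adjusted p = 2.07e-07).

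SNHG15, which holds SNORA9, followed at 75.3, 57.99, 71.1 and 66.2 CPM against 20.1 and 24.6 CPM (log2 fold change 1.60 ± 0.15 SE). SNHG3 (chromosome 1, 28505980 to 28510892), the host of SNORA73A and SNORA73B, stood at 93.5, 78.4, 73.6 and 59.2 CPM against 28.2 and 27.95 CPM (1.44 ± 0.17 SE). SNHG17, with the SNORA71 family, was at 58.8, 51.4, 48.5 and 40.4 CPM against 20.5 and 21.4 CPM (1.25 ± 0.16 SE). In these 3 H/ACA hosts every naive library exceeded both primed libraries, with adjusted p of 1.16e-06, 9.31e-06 and 2.06e-05.

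GAS5 (growth arrest specific 5; chromosome 1, 173858559 to 173868882, minus strand) is a TOP host studied for its decay with translation, and RefSeq places 10 C/D and 1 H/ACA snoRNAs inside it. Its levels were 286, 211, 251 and 249 CPM in naive and 108 and 82.9 CPM in primed libraries. The lowest naive library was above the highest primed one, and the log2 fold change was 1.39 ± 0.14 (SE; adjusted p = 3.73e-06). TAF1D, which encodes a subunit of the RNA polymerase I factor SL1 and holds 8 snoRNAs, was at 188, 188, 191 and 202 CPM against 106 and 90.3 CPM. This protein-coding host was nearly level across the naive libraries and rose by 0.97 ± 0.11 on the log2 scale (SE; adjusted p = 5.92e-06).

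EPB41L4A-AS1, host of SNORA13, was at 43.6, 39.6, 33.8 and 36.1 CPM against 18.4 and 19.7 CPM, a log2 fold change of 1.01 ± 0.14 (SE; adjusted p = 6.28e-05). ZFAS1 (chromosome 20, 49278178 to 49299600), which holds SNORD12, SNORD12B and SNORD12C, was at 92.9, 92.3, 109 and 97.6 CPM against 59.8 and 59.0 CPM. Neither gene's groups overlapped, and ZFAS1 had the smaller log2 fold change, 0.72 ± 0.11 (SE; adjusted p = 1.29e-04).

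The other hosts called higher had log2 fold changes between 0.37 and 1.21. They were SNHG32 (1.21), SNHG31 (0.99), SNHG11 (0.80), SNHG8 (0.78), SNHG29 (0.72), SNHG16 (0.60) and SNHG6 (0.37), besides SNHG27 below. SNHG32 is summed over 5 identifiers that hold 17.4% to 21.8% of its counts each, since its region of chromosome 6 has several haplotype sequences in the reference. The calls of 3 of these hosts ended when single libraries were left out, while their log2 fold changes stayed above 0, at 0.29 to 0.47 for SNHG6, 0.59 to 1.04 for SNHG11 and 0.90 to 1.10 for SNHG31 over the alternatives. The adjusted p of SNHG6 became 0.0719 without AICAR naive 1, 0.0561 without VPA naive and 0.179 without primed CA-p38 EOS. That of SNHG11 became 0.145 without primed EOS, and that of SNHG31 became 0.0873 without primed EOS and 0.0912 without primed CA-p38 EOS.

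SNHG27 had the highest fitted log2 fold change, 4.04 ± 0.74 (SE; adjusted p = 4.72e-04), on few reads. Its counts were 130, 112, 32 and 46 in the naive libraries and 4 and 5 in the primed ones. In CPM this was 2.39, 2.26, 0.633 and 0.879 against 0.0808 and 0.102. Both AICAR libraries were above the CA-p38 and VPA libraries, and all 4 were above the primed ones. RefSeq places no snoRNA inside SNHG27, and GENCODE places 1.

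**Figure D2:**
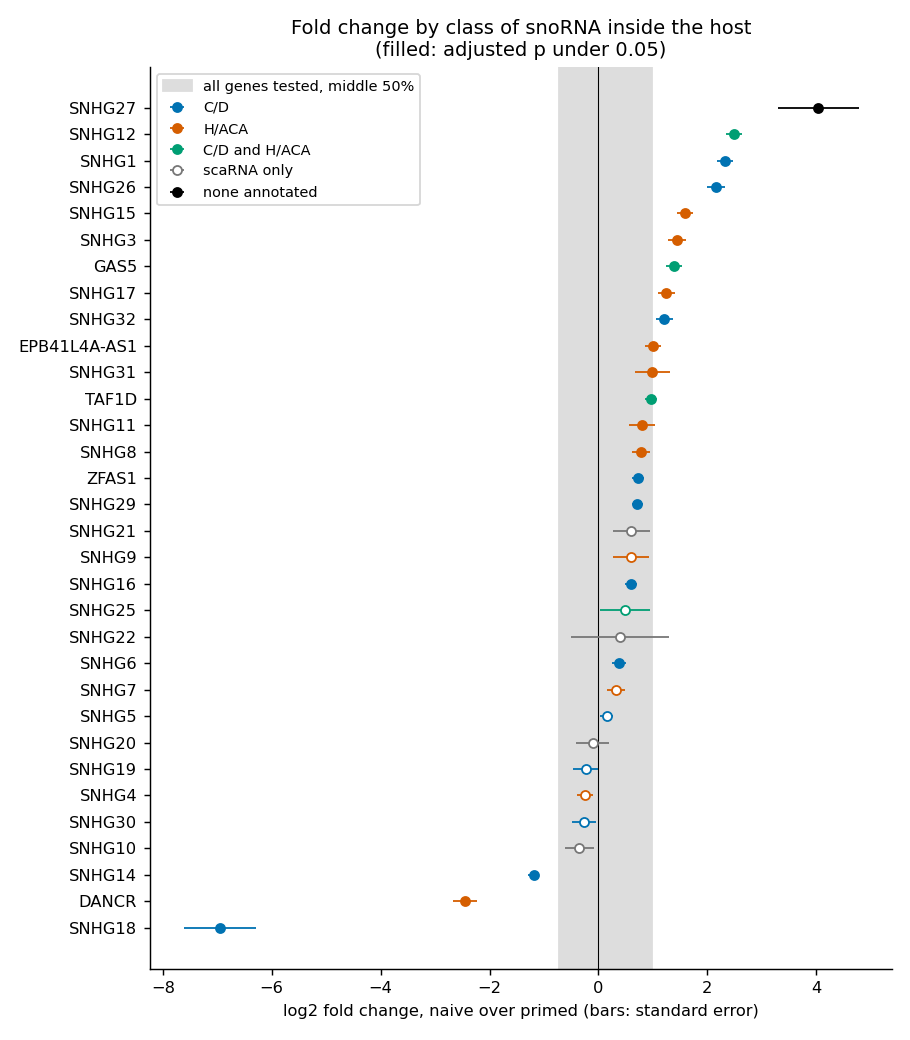
Fitted log2 fold change, naive over primed, of the 32 snoRNA host genes tested (points; bars: standard error), coloured by the class of snoRNA that RefSeq places inside the gene and filled where the adjusted p is under 0.05. The grey band is the middle 50% of all genes tested, -0.72 to 0.99; 11 hosts lie above it and SNHG14, DANCR and SNHG18 below it.

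The 3 hosts called lower in naive cells were DANCR, SNHG14 and SNHG18. DANCR (differentiation antagonizing noncoding RNA; chromosome 4, 52712325 to 52723623), known for holding progenitor cells undifferentiated, carries SNORA26. It was at 24.6, 36.6, 17.0 and 20.8 CPM in the naive libraries in the order above, and at 120 and 150 CPM in the primed ones. Every naive library was far below both primed libraries, a log2 change of -2.45 ± 0.22 (SE; adjusted p = 1.09e-06).

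SNHG14 (chromosome 15, 24978583 to 25420336) is the long imprinted transcript that is expressed from the paternal copy and runs through the SNORD116 and SNORD115 clusters, and RefSeq places 83 C/D snoRNAs in it. Its levels were 358, 410, 391 and 318 CPM against 798 and 887 CPM. The naive libraries differed among themselves by at most 1.29-fold and fell by 1.19 ± 0.11 on the log2 scale relative to primed cells (SE; adjusted p = 9.48e-07). Levels of the parental alleles were not analysed here.

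SNHG18 (chromosome 5, 9546170 to 9550725), host of SNORD123, was near the floor in naive cells. It had 7, 1, 0 and 0 counts in AICAR naive 1, AICAR naive 2, CA-p38 naive and VPA naive, against 246 and 253 in the primed libraries. The fitted log2 change of -6.96 ± 0.66 (SE; adjusted p = 1.47e-06) depends on the prior count of the fit and on these few reads. In CPM the primed libraries were at 4.97 and 5.17, and no naive library was above 0.129.

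For 5 of the 8 hosts with the lowest fold changes no change was called. SNHG4, host of SNORA74A and SNORA74D, was at 32.1, 34.2, 31.3 and 23.4 CPM against 35.2 and 36.6 CPM, so its groups did not overlap, but the log2 difference of -0.25 ± 0.15 SE missed the threshold (adjusted p = 0.196). SNHG10 was at 3.29, 4.93, 3.80 and 5.54 CPM against 6.28 and 4.95 CPM, and SNHG30 at 5.65, 6.24, 5.01 and 5.16 CPM against 7.40 and 5.93 CPM. SNHG19 was at 7.66, 8.01, 6.27 and 5.14 CPM against 7.94 and 7.995 CPM. The libraries of these last 3 hosts overlapped, with adjusted p of 0.283, 0.315 and 0.405. SNHG20 was at 6.52, 6.44, 5.46 and 4.05 CPM against 4.001 and 8.12 CPM, and its primed libraries were further apart than any pair of naive ones (adjusted p = 0.781).

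The remaining hosts not called were SNHG5 (log2 difference 0.15), SNHG7 (0.32), SNHG9 (0.60), SNHG21 (0.61), SNHG22 (0.39) and SNHG25 (0.49). SNHG7 passed the threshold without CA-p38 naive (adjusted p = 0.0433). A miss of the threshold does not show that these hosts were equal in the 2 states, and the standard errors of SNHG22 (0.90) and SNHG25 (0.46) leave room for sizeable differences.

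By the class of snoRNA inside, 7 of 12 C/D hosts (58.3%) were called higher and 2 (16.7%) lower, with a median log2 fold change of 0.49. For H/ACA hosts, 7 of 11 (63.6%) were called higher and 1 (9.09%) lower, with a median of 0.80. The shares among all genes tested were 26% higher and 27% lower. Of the 4 hosts of both classes (GAS5, SNHG12, SNHG25 and TAF1D) 3 were called higher, with a median of 1.18. None of the 4 hosts of scaRNAs alone (SNHG10, SNHG20, SNHG21 and SNHG22) was called by edgeR, DESeq2 or limma-voom, and 0 of them had an unadjusted p under 0.05 in edgeR. Their median was 0.14. These are few genes, and SNHG22 averaged only 0.233 CPM over the libraries, so the absence of calls says little about the class. Whether the classes differ was not tested.

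Rows of the snoRNAs themselves were sparse in these libraries, which were enriched for poly(A) RNA. Why the rows were sparse was not tested. Of 109 snoRNA or scaRNA rows inside the hosts by GENCODE position, 49 had 0 counts in every library and 15 had at least 20 counts over the 6 libraries. In hosts other than SNHG14, 11 of 18 rows outside host exons reached 20 counts, against 4 of 51 rows within host exons. Of those 15, after division by the library total, 11 had all naive libraries above both primed libraries and 4 overlapped. Of all genes tested, 64.9% did not overlap, in either direction and on TMM-scaled CPM. A row could reach 20 counts through its naive libraries alone, so these counts describe the rows and carry no test. Reads on an intronic snoRNA and reads of unspliced host RNA across it cannot be told apart here.

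The sequences of the 5 rows outside annotated host exons with the most counts are shown, so that the molecules behind the values can be seen, from GENCODE release 44. Capitals mark the letters TGATGA of the C box in the first part of the molecule and the last CTGA, the D box, in C/D snoRNAs, and the ACA near the 3′ end in the H/ACA snoRNA. SNORD99 has no exact TGATGA.
SNORA73B of SNHG3, chr1:28508559-28508762: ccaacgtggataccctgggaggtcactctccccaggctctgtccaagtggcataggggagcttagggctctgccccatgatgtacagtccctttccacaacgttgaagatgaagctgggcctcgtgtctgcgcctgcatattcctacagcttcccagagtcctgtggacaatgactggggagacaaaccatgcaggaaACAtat
SNORD12C of ZFAS1, chr20:49278940-49279028: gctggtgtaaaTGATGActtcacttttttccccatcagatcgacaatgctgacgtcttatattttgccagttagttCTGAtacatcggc
SNORD104 of SNHG25, chr17:64146083-64146152: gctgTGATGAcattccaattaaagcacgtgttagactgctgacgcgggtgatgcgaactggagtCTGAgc
SNORD99 of SNHG12, chr1:28578749-28578822: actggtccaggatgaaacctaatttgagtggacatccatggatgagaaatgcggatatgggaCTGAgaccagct
SNORD6 of TAF1D, chr11:93731502-93731574: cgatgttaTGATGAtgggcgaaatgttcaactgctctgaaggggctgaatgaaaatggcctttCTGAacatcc

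SNORA73B, an H/ACA snoRNA of SNHG3, had 322, 224, 250 and 221 counts in the naive libraries and 17 and 14 in the primed ones. SNORD12C of ZFAS1 had 164, 90, 179 and 94 against 8 and 10 counts. SNORD99 of SNHG12 had 62, 28, 64 and 71 against 6 and 7 counts. All 3 rows belong to hosts that were called higher themselves, and no library of one state reached into the other.

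For some pairs the snoRNA row and its host did not show the same separation of the states, although no difference between row and host was tested. SNORD104 had 152, 65, 76 and 64 counts against 27 and 13, while its host SNHG25 overlapped between the states at 1.504 to 5.999 CPM in naive and 1.88 to 2.99 CPM in primed libraries. SNORD60, which lies within an exon of SNHG19, had 64, 38, 57 and 34 against 14 and 17 counts, while SNHG19 was not called. SNORA26, within an exon of DANCR, had 19, 4, 0 and 11 against 9 and 7 counts, so it overlapped where DANCR did not. How reads shared between an exonic snoRNA and its host were counted was not tested. The 40 rows inside SNHG14 held at most 8 counts in any library between them.

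**Figure D3:**
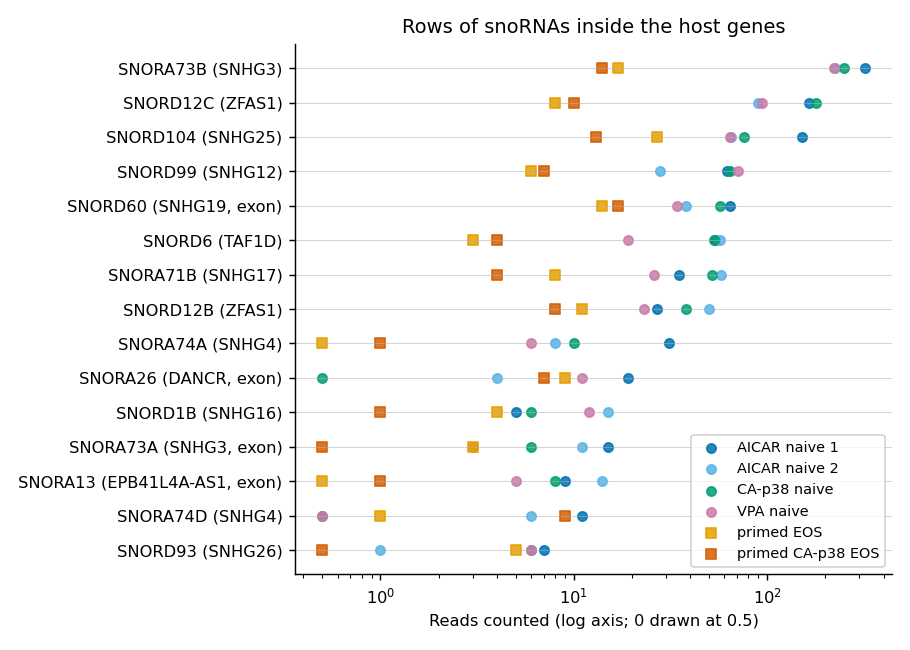
Reads counted at the 15 snoRNA rows with at least 20 counts in all (x axis: counts, log axis, 0 drawn at 0.5; circles: naive libraries, squares: primed libraries), with the host in brackets and "exon" where the snoRNA lies within an annotated host exon. SNORA73B has 221 to 322 counts in the naive libraries and 14 and 17 in the primed ones, while SNORA26 overlaps.

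The hosts were also described within each parental line. Each naive library was set over its own parent, as a log2 ratio of CPM with a prior of 0.5, so the lines share no library, while the 3 naive libraries of the EOS line share 1 parent. Of the 31 hosts with a mean of at least 1 CPM, 20 had all 4 ratios above 0, 6 had all 4 below 0 (SNHG4, SNHG10, SNHG14, SNHG18, SNHG30 and DANCR) and 5 were mixed. Of all 18070 genes at that level, 38.9% had all 4 ratios above 0 and 41.6% all 4 below, so agreement in sign as such was about as common among all genes (80.6%) as among the hosts (83.9%). SNHG12 had ratios of 2.71, 2.36 and 2.58 in AICAR naive 1, AICAR naive 2 and VPA naive, and 2.25 in the CA-p38 line. DANCR had -2.26, -1.70 and -2.50, and -3.10 in the CA-p38 line. SNHG14 had -1.16, -0.96 and -1.33, and -1.18. With 1 primed library per line these ratios have no test.

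The mixed hosts were SNHG5, SNHG7, SNHG19, SNHG20 and SNHG25. SNHG20 had 0.64, 0.62 and 0.02 in the EOS line and -0.53 in the CA-p38 line, where its primed library was the highest of the 6. SNHG7 had 0.61, 0.44 and 0.49 in the EOS line and -0.135 in the CA-p38 line.

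**Figure D4:**
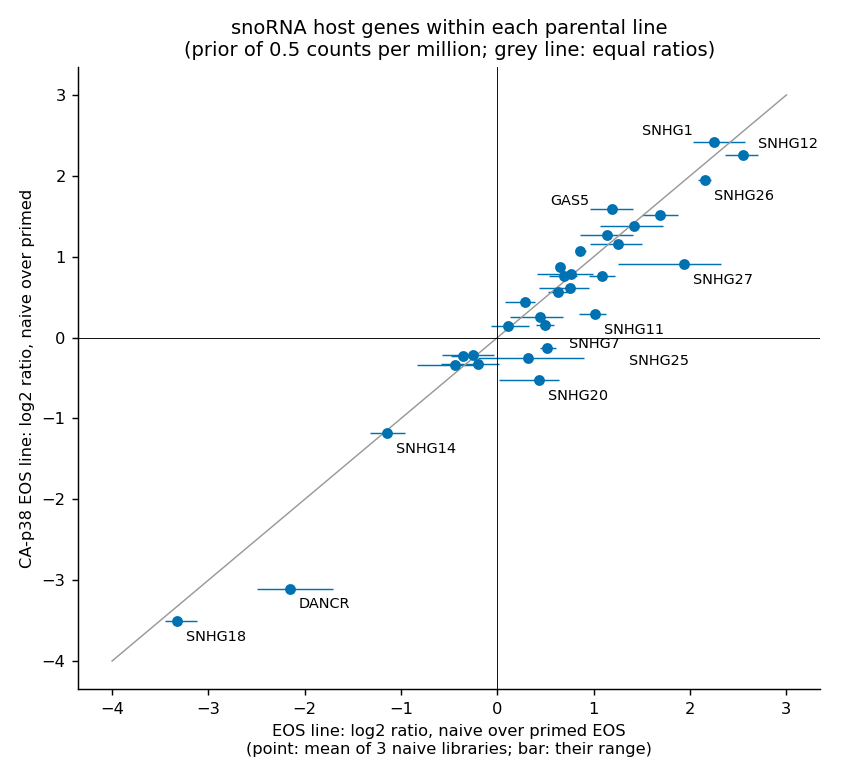
Log2 ratio of naive over parental primed CPM (prior 0.5) of 31 snoRNA host genes in the EOS line (x axis; point: mean of 3 naive libraries, bar: their range) and in the CA-p38 EOS line (y axis; 1 library over 1). Points near the grey line have equal ratios; SNHG7, SNHG20 and SNHG25 have opposite signs in the 2 lines, and DANCR is at -2.16 and -3.10.

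Several hosts start within 1000 bases of a gene on the other strand, and the pairs moved in different ways. SLC3A2, the heavy chain of amino acid transporters, starts 51 bases from SNHG1 and rose from 196 ± 17.0 CPM (SD, n = 2 primed libraries) to 471 ± 33.8 CPM (SD, n = 4 naive libraries), by 1.26 on the log2 scale beside 2.32 for SNHG1. BARD1, the partner of BRCA1, rose by 1.04 beside 0.99 for SNHG31. SEMA5A, a semaphorin whose gene starts 95 bases from SNHG18, fell by 4.77 on the log2 scale, from 16.8 ± 4.45 CPM (SD, n = 2) to 0.614 ± 0.230 CPM (SD, n = 4). In these 3 pairs both genes were called in the same direction.

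ZNFX1 went the other way from ZFAS1, with a log2 change of -0.61 ± 0.17 (SE; adjusted p = 0.00774). MED17, a Mediator subunit beside TAF1D, stood at 26.4 ± 3.04 CPM (SD, n = 4 naive libraries) and 26.7 ± 2.45 CPM (SD, n = 2 primed libraries) and was not called (adjusted p = 0.924). ZBTB37 beside GAS5 was not called either (0.21, adjusted p = 0.45). RPS2, a ribosomal protein gene that starts 54 bases from SNHG9, rose by 0.55 while SNHG9 (0.60) did not pass the test, and TRAF7 beside SNHG19 was called lower (-0.40). ACAA2, which starts 12 bases from SNHG22, was not called (-0.30, adjusted p = 0.0532).

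Of the noncoding neighbours, AC015802 beside SNHG16 (0.93) and the pseudogene AC005363 beside SNHG9 (1.94) were called higher. AC105339 beside SNHG21 (0.45) and AL590560 beside SNHG28 (0.75) were not called. Whether the counting used the strand is not given in the sources used here, so reads of overlapping genes on opposite strands could not be separated.

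**Figure D5:**
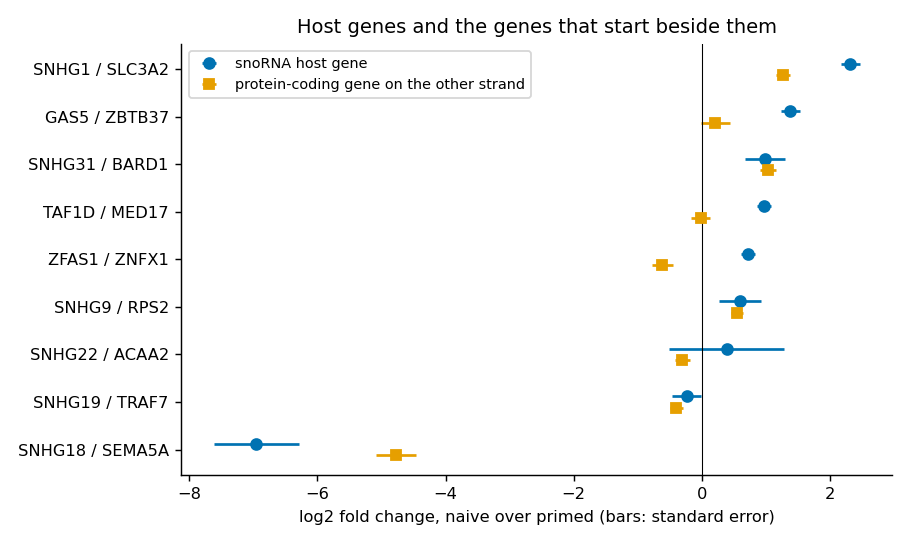
Log2 fold change, naive over primed (bars: standard error), of 9 snoRNA host genes (circles) and of the protein-coding gene that starts within 1000 bases on the other strand (squares). SNHG1 and SLC3A2, SNHG31 and BARD1, and SNHG18 and SEMA5A moved together; ZFAS1 (0.72) and ZNFX1 (-0.61) lie on opposite sides of 0.

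Protein-coding genes that carry snoRNAs, mostly genes of ribosomal proteins and translation factors, were described from a list of 28. Of these, 17 were called higher (60.7%) and 4 lower (14.3%), beside 26% and 27% of all genes tested. Restricted to an average of 1 CPM or more, those background shares were 31% and 34.5%. The median log2 fold change of the 28 was 0.33. Those calls are from edgeR, while DESeq2 called 14 of the 28 higher and limma-voom 19, each with 4 lower. RPSA (1.10) and RPL13A (0.99), both of the ribosome, were the highest. HSPA8, a heat shock cognate chaperone, fell by 0.78 and EIF4G2, a translation factor, by 0.58.

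Proteins that bind the snoRNAs were described from lists as well. Of the 8 core proteins of snoRNA particles, 2 were called higher (25%, beside 26% of all genes tested), 1 lower and 5 did not pass, with a median of 0.10. The 2 were SNU13 (0.75), which binds the C/D motif, and NOP58 (0.47), while FBL, the methyltransferase fibrillarin, fell by 0.43. Without primed EOS the call of FBL ended and 1 of the 8 was called higher. The H/ACA core genes DKC1 (0.12), NHP2 (0.08), GAR1 (0.07) and NOP10 (-0.26) were not called. Of 10 assembly factors, 6 were called lower (60%) and 0 higher by edgeR, DESeq2 and limma-voom alike (median -0.42). At an unadjusted p under 0.05 in edgeR, 0 were higher as well. Of all genes tested, edgeR called 27% lower and 26% higher. RUVBL1, an ATPase of the assembly machinery, fell by 0.86 and RPAP3 by 0.66. With library totals as the scaling, 1 assembly factor was called higher and 5 lower. Without CA-p38 naive, 5 were called lower, and fewer than 6 were when either primed library was left out.

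Genes of nonsense-mediated decay moved in both directions. Of 15, with a median of -0.18, 3 were called higher (20%) and 6 lower (40%), beside 26% and 27% of all genes tested. With library totals as the scaling, or with at least 10 counts required in every library, 5 were called higher. UPF1, the central helicase, rose by 0.55 and EIF4A3, of the exon junction complex, by 0.52. The endonuclease SMG6 fell by 1.64, from 79.5 ± 8.64 CPM (SD, n = 2) to 25.5 ± 2.08 CPM (SD, n = 4), and CASC3 fell by 1.14.

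Of 8 regulators of TOP mRNAs, with a median of 0.38, 5 were called higher (62.5%) and 1 lower (12.5%), beside 26% and 27% of all genes tested. LARP1, which binds the TOP start, fell by 0.95, from 546 ± 28.4 CPM (SD, n = 2) to 283 ± 21.5 CPM (SD, n = 4). Its paralog LARP1B rose by 1.74, and RPTOR, a subunit of the mTORC1 kinase, by 0.68. Without primed EOS, 3 of the 8 were called higher.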

How the data were processed

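RNA of 4 naive and 2 primed libraries was sequenced after poly(A) enrichment. The authors trimmed reads with cutadapt 1.15 in Trim Galore 0.4.4, mapped them with Bowtie2 to the cDNA and noncoding RNA of Ensembl GRCh38 release 100, and deposited raw counts of alignments per gene identifier. RSEM and limma are also named in the submitters' processing notes; values from them were not used here. Also in the deposited table are 23 columns from elsewhere, not used here, and 26 spike-in rows (at most 1 count in a library), left out.

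Counts of identifiers that share a name were summed. The 2 states were compared by the quasi-likelihood test of edgeR 4.0.16 (R 4.3.3; TMM scaling, filterByExpr by state, no covariates). P-values were adjusted by Benjamini-Hochberg across the 26497 genes in the fit, with 0.05 as the threshold. The common dispersion was 0.0563. Standard errors come from the unshrunk coefficient and the F statistic. DESeq2 1.42.0 and limma 3.58.1 served as alternatives. Positions are from GENCODE release 44 and snoRNA classes from RefSeq (GRCh38.p14), which gives no strand.

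The host genes and the gene lists were chosen with earlier results of these data known. Levels in every library are given for the 8 hosts at the top and the 8 at the bottom by fold change among those averaging 1 CPM or more, and for GAS5, SNHG1, ZFAS1, DANCR, EPB41L4A-AS1 and TAF1D. Of each list, up to 2 called genes at either end were named, and other list genes named with values were chosen after their values were seen. The total counts bound the precision; limits for a count of 0 assume 3 counts and cover counting error only.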

Additional observations from a re-analysis of the deposited data

Results flagged for a closer look

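SNHG18 stood out in AICAR naive 1, at 0.129 CPM from 7 counts, against 1, 0 and 0 counts in the other naive libraries. Its gap to the next library was 0.844 of the range of the 4 naive libraries, above Dixon's 95% critical value. Chance passes that value in about 1 of 20 groups of continuous values. With counts this low and tied at 0, that rate need not hold. All 4 naive libraries were nonetheless under both primed libraries.

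SNHG7 and SNHG20 moved in opposite directions in the 2 parental lines. The CA-p38 line gave a log2 ratio of -0.135 for SNHG7 and of -0.531 for SNHG20, while all 3 naive libraries of the EOS line were above their parent for both genes. The difference was not tested, since each line has 1 primed library.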

How the results depend on the processing

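Calls of host genes were counted under 15 alternatives. Hosts called higher numbered 16 to 19 and hosts called lower 2 to 3, where the 2 came from requiring at least 10 counts in every library, which leaves out SNHG18, SNHG22 and SNHG27. Of 477 host values under alternatives, 464 kept their direction and their side of the threshold, 6 lost the call (SNHG6, SNHG11 and SNHG31, each only when a library was left out), 2 gained it (SNHG7, at 0.42 with library totals and 0.40 without CA-p38 naive) and 5 reversed. The reversals were SNHG20, at 0.0012 with library totals, 0.051 with the parental line as a block and -0.54 to 0.50 with a library left out (above 0 without VPA naive or primed CA-p38 EOS), and SNHG22, at -0.15 to 1.28 with a library left out (below 0 without primed CA-p38 EOS). Among the lists, snoRNA particle core genes called lower were 2 with the line block and 0 to 1 with a library left out, and those called higher 1 to 3 with a library left out. Assembly factors called higher were 1 with library totals. Those called lower were 5 with library totals and 5 without CA-p38 naive, and fewer than 6 without either primed library. Decay genes called higher were 5 with library totals and 5 with at least 10 counts in every library. Fewer decay genes were called lower without primed EOS than in the main fit. TOP regulators called higher were 3 to 5 with a library left out. All genes called numbered 11311 (without primed CA-p38 EOS) to 14332, and 15585 identifiers were called where each identifier was fitted on its own. The cause of these shifts was not tested. The labels share no replicate numbers between naive and primed samples, so pairing was by parental line: with the line as a block, 18 hosts were called higher and 3 lower. With the AICAR libraries summed into 1, 18 hosts were called higher and 3 lower as well. Depth limits SNHG18, SNHG22, SNHG27 and SNHG28, which rest on few counts in at least 1 state.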
